A study of Homo sapiens with 4 samples.

Results

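The 37 genes described here encode the proteins of the lysosome and of autophagy, the route by which a cell encloses its own contents in a double membrane and delivers them to the lysosome for degradation. They were chosen by name and role, with earlier results of these data known, and all 37 were found among the 40205 rows of the expression table, 36 under the listed symbol and CTSL1 under its present symbol CTSL. They fall into 5 classes by role: 13 lysosomal enzymes and other luminal proteins, 5 lysosomal membrane proteins, 5 genes of the proton pump, the 3 transcription factors of the TFEB family, and 11 genes of the autophagy machinery. All 37 reached the minimum level for testing, 1 RPKM (reads per kilobase of gene model, scaled to the library size) in at least 1 library, as did 16098 genes in all.

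Poly(A) RNA was read paired-end from 2 human glioblastoma cell lines, U87MG and U251, in 4 libraries with 1 library per line and arm. The control arm, labelled WT, carried the lentiviral hairpin sh-NC, and the knockdown arm, labelled KD, carried sh-SRSF1, a hairpin against the splicing factor SRSF1. Every library therefore came from cells that had been infected at a multiplicity of 20 and kept under puromycin for 1 week to give stable lines, and no uninfected cells were measured. The labels name 1 hairpin against SRSF1 and do not say whether the libraries came from separate infections, so a p-value given here reflects the spread among these 4 libraries and no more.

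The libraries held between 25099799 and 27953878 reads. SRSF1 itself read 88.3 RPKM with the control hairpin and 14.6 with the SRSF1 hairpin in U87MG, and 109 and 15.8 in U251, a fall by 2.62 ± 0.16 on the log2 scale (SE, n = 2 libraries per arm, limma adjusted p = 0.0022). Lysosomal genes are abundant in macrophages and microglia, and 11 of 12 markers of those cells were under 1 RPKM in every library, with P2RY12 and TYROBP at 0. Their summed level was 1.87 RPKM (control) and 0.63 (knockdown) in U87MG, and 0.85 and 0.75 RPKM in U251. The macrophage and microglia marker above 1 RPKM was CSF1R. It read 1.40 and 0.251 RPKM in U87MG, a read ratio of 0.179, and 0.519 and 0.368 in U251, a read ratio of 0.708. The 6 endothelial and blood markers summed to at most 0.5. The 10 glial and glioma markers summed to 1875.71 (control) and 1298.1 RPKM (knockdown) in U87MG and to 1627.62 and 1413.72 in U251, mostly from VIM and CD44, and 3 of the 10 did not reach 1 RPKM in any library, AQP4 being at 0. GFAP, a marker of mature astrocytes, did not exceed 1.47 RPKM. SOX2 (0.121 and 0.046 RPKM in U87MG, 47.9 and 49.3 in U251) and NES (1.79 and 1.29, then 61.1 and 83.7) separated the lines. Between arms, the read ratio of VIM was 0.691 in U87MG (U251 0.794), that of CD44 0.671 (U251 1.11) and that of SLC1A3 0.956 (U251 2.53). The part of these marker differences in the results below was not tested.

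Lysosomes are kept acidic by a rotary proton pump, the V-ATPase, whose membrane sector (V0) carries the protons and whose outer sector (V1) splits ATP. Hydrolases reach the lumen through mannose 6-phosphate receptors, and autophagosomes, marked by lipid-linked LC3 and GABARAP proteins, fuse with the lysosome to be degraded. TFEB, TFE3 and MITF are related basic helix-loop-helix factors that leave the cytoplasm for the nucleus when the kinase complex mTORC1 on the lysosome is inactive, and they bind E-box sequences in many lysosomal promoters, where the element is known as the CLEAR motif.

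The E-box is shown first because these factors bind it and a subset of the genes holds it. RefSeq promoters on GRCh38.p14, running from 250 bases before to 50 bases after an annotated start, were on hand for 29 of the 37 genes, in 45 promoters. The word CACGTG, which reads the same on both strands, occurred in a promoter of 7 of the 29 genes (24.1%), of 33 of 139 other genes of the same pathways (23.7%), of 1163 of the 9242 tested genes with a promoter (12.6%) and of 2396 of 27305 genes in the table of promoters (8.8%). The longer word TCACGTGA, which contains the first and is also its own reverse complement, occurred in 4 of the 29 (13.8%), in 14 of the 139 (10.1%) and in 218 of the 9242 tested genes (2.4%). A match describes the letters of the promoter and is not evidence of a bound site. The stretches that hold the word, with 15 bases on either side and every CACGTG in capitals, are given 5′ to 3′ on the strand of the gene.
ATP6V0D1: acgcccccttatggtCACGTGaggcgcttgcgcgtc
CD63: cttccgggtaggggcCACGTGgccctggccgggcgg
CTSA: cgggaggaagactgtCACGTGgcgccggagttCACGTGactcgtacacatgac
CTSD: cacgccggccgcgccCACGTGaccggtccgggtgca
LAMP1: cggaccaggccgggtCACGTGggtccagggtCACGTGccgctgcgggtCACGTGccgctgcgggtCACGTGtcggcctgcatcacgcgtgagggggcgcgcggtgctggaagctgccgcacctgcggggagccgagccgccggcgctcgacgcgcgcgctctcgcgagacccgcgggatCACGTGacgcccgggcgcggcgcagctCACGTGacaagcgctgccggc
MCOLN1: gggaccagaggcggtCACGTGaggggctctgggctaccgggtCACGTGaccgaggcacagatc
NEU1: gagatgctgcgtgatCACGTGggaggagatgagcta

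These stretches lie at chr16:67481196-67481231 (ATP6V0D1, minus strand), chr12:55729169-55729204 (CD63, minus), chr20:45891278-45891330 (CTSA, plus), chr11:1763954-1763989 (CTSD, minus), chr13:113297032-113297258 (LAMP1, plus), chr19:7522568-7522630 (MCOLN1, plus) and chr6:31862927-31862962 (NEU1, minus). LAMP1 held 6 copies of the word, the first 192 bases before the start and the last 1 base before it. CTSA and MCOLN1 held 2 each, and the other 4 genes 1 each. In ATP6V0D1 the word began 59 bases before the start, in CTSD 47, in NEU1 126 and in CD63 180. None of the 3 TFEB family genes and none of the 10 autophagy genes with a promoter held it.

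In both lines these genes were expressed well above the average gene. Their median was 33.6 RPKM in control U87MG cells against 6.51 over all genes tested, and at 25.7 against 6.81 in the U251 control. The highest in the U87MG control were SQSTM1, the receptor p62 that links ubiquitinated cargo to LC3, at 626.2 RPKM, the tetraspanin CD63 at 454.5 and the cysteine protease cathepsin L (CTSL) at 386.7. In the U251 control the order was CD63 at 210.4, prosaposin (PSAP), the precursor of the sphingolipid activator proteins, at 164.2, and SQSTM1 at 144.2. The lowest in both controls were TFEB and cathepsin Z (CTSZ), whose U87MG control values of 0.111 and 0.101 RPKM rested on 7 and 4 reads.

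**Figure D1:**
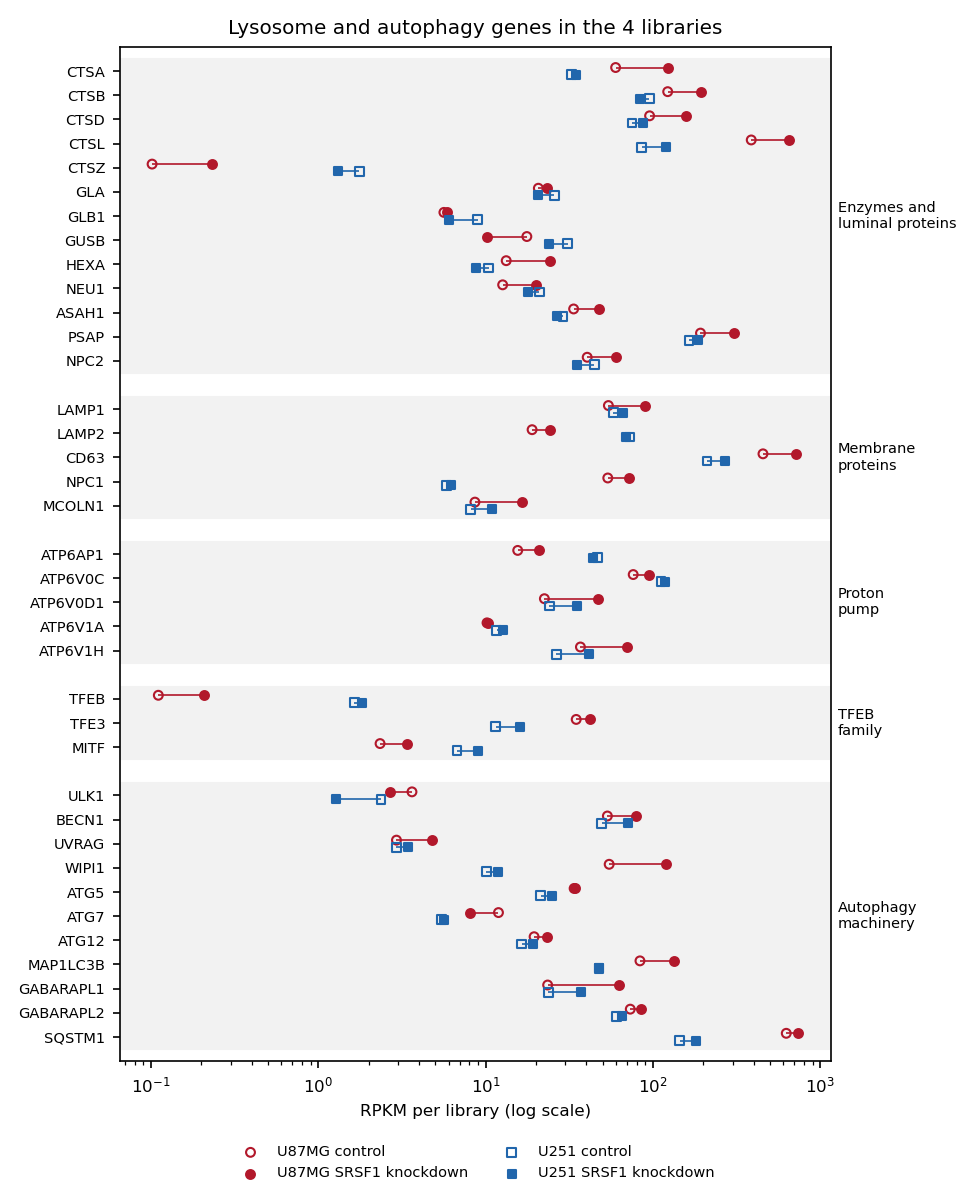
Level of each of the 37 genes in the 4 libraries, in RPKM on a log axis, grouped by class. Open symbols are the control and filled symbols the SRSF1 knockdown, circles U87MG and squares U251. In U87MG the filled circle lies to the right of the open one for 34 of 37 genes, and in U251 the filled square for 24.

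With SRSF1 depleted, most of these genes were higher in U87MG, and fewer were in U251. In U87MG 34 of 37 had a higher level in the knockdown library (91.9%, against 43.2% of all genes tested), with a median log2 ratio of 0.50 against -0.05 over all genes. In U251 24 of 37 were higher (64.9%, against 48.4%), with a median of 0.10 against -0.00, a count that becomes 25 under trimmed-mean rescaling of the libraries, where MAP1LC3B in U251 changes its sign. Ratios within a line are on the scale of log2(RPKM + 1) and have no replicate, so no test was possible there.

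At a difference of at least 1.5-fold on that scale, 15 of the 37 were higher in the U87MG knockdown, where 7.68% of all genes tested were, and 1, GUSB, was lower, where 11.5% were. In U251 only GABARAPL1 and ATP6V1H passed that size upward, where 5.01% of all genes did, and none passed it downward, where 7.73% did. Trimmed-mean rescaling of the libraries changed the all-gene split in U87MG from 1236 higher and 1848 lower to 1542 higher and 1490 lower, and gave 19 of the 37 genes as higher.

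Across the 2 lines, with the line as a block in limma, 2 of the 37 genes passed an adjusted p of 0.05, both higher in the knockdown, where 1.16% of all genes tested were called higher. These were GABARAPL1, of the GABARAP branch of the ubiquitin-like proteins on autophagosomes, and ATP6V1H, the regulatory H subunit of the pump's outer sector. None was called lower, where 2.61% of all genes were, and at an unadjusted p under 0.05 there were 13 higher and 2 lower (GUSB and ULK1). That is 35.14% of the genes on the higher side, beside 8.29% of all genes tested, while 12.8% of all genes were on the lower side.

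The counting intervals of the read ratios can be set side by side for the lines. They were apart with U87MG above for 23 of the 37 genes, where 13.2% of the 15714 tested genes with reads in both lines were, and with U87MG below for 5, where 24.3% were. In 8 genes the interval lay above 1 in U87MG and below 1 in U251, where 2.88% of those genes did, and in none the other way round, where 5.77% did. Such intervals cover counting error only and are narrower for abundant genes, which most of the 37 were.

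**Figure D2:**
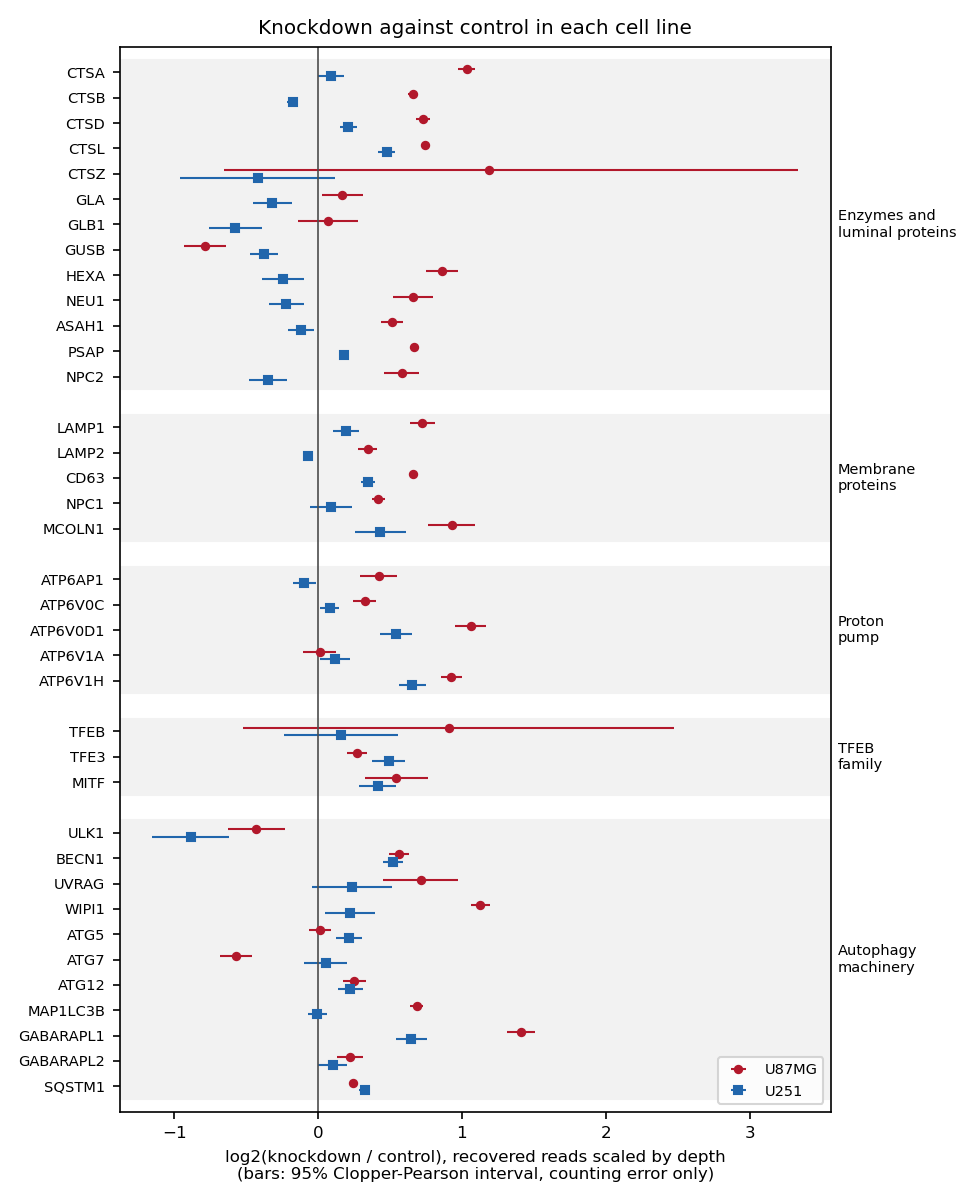
Ratio of knockdown to control in each line for the 37 genes, as log2 of the depth-scaled ratio of recovered reads, with 95% exact Clopper-Pearson intervals that cover counting error only. The circles (U87MG) lie to the right of the squares (U251) with intervals apart for 23 genes (13.2% of all genes), to the left for 5 (24.3% of all genes), and the intervals overlap for 9.

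GABARAPL1 (chr12:10212458-10223130 on GRCh38, plus strand) read 23.5 and 62.4 RPKM in the control and knockdown of U87MG, and 23.7 and 37.1 in U251. The controls of both lines were nearly equal and each knockdown was above both, so the arms did not overlap. The ratio of its recovered reads was 2.66 (95% counting interval 2.48 to 2.85) in U87MG and 1.57 (1.45 to 1.69) in U251, and the estimate across lines was 0.999 ± 0.21 (SE, n = 2 libraries per arm, limma adjusted p = 0.0473). ATP6V1H (chr8:53715557-53843558, minus strand) read 36.8 and 70.1 RPKM in U87MG, and 26.5 and 41.7 in U251, control first. Here too both knockdown libraries were above both controls. Its estimate was 0.77 ± 0.17 (SE, n = 2 libraries per arm), with a limma adjusted p just inside the threshold (0.04997). Both calls ended under trimmed-mean rescaling (limma adjusted p = 0.079 for GABARAPL1 and 0.069 for ATP6V1H) and without the trend in eBayes (0.075 and 0.08). They also ended without a filter on low values (0.42 for both) and with the line left out of the fit (1 for both), where SRSF1 itself was not called either, and over all settings the adjusted p started at 0.015 and 0.021.

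The classes differed most between the lines among the enzymes and other luminal proteins. In U87MG 12 of the 13 were higher in the knockdown, where 43.2% of all genes tested were, with a median log2 ratio of 0.62. There 7 passed 1.5-fold upward, where 7.68% of all genes did, and GUSB downward, where 11.5% did. In U251 9 of the 13 were lower, with a median of -0.21, and 4 were higher (30.8%, against 48.4% of all genes tested). None passed 1.5-fold in either direction there. Of all genes 5.01% passed it upward and 7.73% downward, so a count of 0 among 13 genes is close to those shares. The counting intervals of the lines were apart with U87MG above for 11 of the 13, beside the 13.2% of all genes. The difference between the lines in these ratios could not be tested, since an interaction leaves no residual degree of freedom with 1 library per line and arm.

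Among the proteases, cathepsin A (CTSA), which also shields partner glycosidases from degradation, had the largest enzyme ratio in U87MG on the log2(RPKM + 1) scale, 1.02. It read 59.8 and 122.3 RPKM in the control and knockdown of U87MG, and 32.6 and 34.7 in U251. The U87MG knockdown stood apart from the other 3 libraries, with a read ratio of 2.05 (1.97 to 2.13) against 1.07 (1.0015 to 1.13) in U251. Cathepsin B (CTSB), a cysteine protease, read 122.5 and 193.3 RPKM in the control and knockdown of U87MG, and 95.1 and 84.1 in U251. Its read ratio was 1.58 (1.54 to 1.61) in U87MG and 0.884 (0.859 to 0.91) in U251, on opposite sides of 1. Cathepsin D (CTSD), the main aspartic protease of the lysosome, read 95.5 and 158.5 RPKM in U87MG and 74.9 and 86.7 in U251, higher in the knockdown of both lines.

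Cathepsin L (CTSL) read 386.7 and 646.1 RPKM in the control and knockdown of U87MG, and 85.6 and 119.0 in U251. It was higher in both knockdowns, by 1.67-fold (1.64 to 1.70) and 1.39-fold (1.33 to 1.45), and its estimate of 0.61 ± 0.15 missed the threshold (limma adjusted p = 0.0747). CTSZ, a carboxypeptidase, was hardly detected in U87MG, at 0.101 and 0.231 RPKM, and read 1.75 and 1.31 in U251. Its U87MG ratio rested on 4 and 9 reads, with a counting interval from 0.636 to 10.1, so no difference was detectable at that depth.

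The glycosidases, which trim sugars from glycolipids and glycoproteins, did not move alike in the 2 lines. HEXA, the alpha subunit of the hexosaminidase that cleaves GM2 ganglioside, read 13.3 RPKM in the U87MG control and 24.1 in the knockdown, and 10.4 and 8.81 in U251. NEU1, the lysosomal sialidase, read 12.6 and 19.9 RPKM in U87MG and 20.9 and 18 in U251. In both genes the U87MG knockdown was above its control and the U251 knockdown below, with counting intervals on opposite sides of 1. Alpha-galactosidase (GLA) showed the same split at a smaller size, 20.6 and 23.2 RPKM in U87MG and 25.7 and 20.6 in U251. Beta-galactosidase (GLB1) read 5.63 and 5.91 RPKM in U87MG, where its interval included 1, and 8.97 and 6.03 in U251, a read ratio of 0.672 (0.592 to 0.762).

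GUSB, the beta-glucuronidase, was lower in both knockdowns, alone among the 13. It read 17.6 RPKM in the U87MG control and 10.2 in the knockdown, and 31 and 23.9 in U251, and the estimate was -0.55 ± 0.18 (limma adjusted p = 0.133). The table also lists pseudogenes of GUSB, all lower in level. GUSBP1, the one with most reads, had read ratios of 0.813 (0.681 to 0.969) in U87MG and 0.932 (0.776 to 1.12) in U251. Of the transcript words of GUSB 5.8% occur in other annotated genes, so some of its reads may have been counted elsewhere.

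Of the luminal genes of lipid handling, PSAP read 192.3 and 305.5 RPKM in the control and knockdown of U87MG and 164.2 and 185.8 in U251, higher in both. The acid ceramidase ASAH1 read 33.6 and 47.9 RPKM in U87MG and 29 and 26.7 in U251. NPC2, the soluble carrier that hands cholesterol to NPC1, read 40.4 and 60.5 RPKM in U87MG and 44.6 and 35.0 in U251. For ASAH1 and NPC2 the U87MG knockdown was the highest of the 4 libraries and the U251 knockdown the lowest.

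All 5 membrane proteins had a higher value with SRSF1 depleted in U87MG, as had 4 of 5 in U251 (43.2% and 48.4% of all genes tested). The class medians were 0.66 and 0.19, and in all 5 the ratio was larger in U87MG with counting intervals apart (13.2% over all genes). LAMP1, the most used marker of the lysosomal membrane, read 54.1 and 89.5 RPKM in the control and knockdown of U87MG, and 57.8 and 66.1 in U251. Both controls were close and both knockdowns above them, by 1.65-fold (1.56 to 1.75) and 1.15-fold (1.08 to 1.22). LAMP2, whose splice form LAMP-2A serves chaperone-mediated autophagy, read 18.9 and 24.1 RPKM in U87MG and 72.1 and 68.7 in U251. Gene-level values do not separate its splice forms. CD63 read 454.5 and 718.1 RPKM in U87MG and 210.4 and 267.7 in U251, with an estimate of 0.50 ± 0.15 (limma adjusted p = 0.112).

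MCOLN1, the calcium channel of the lysosomal membrane also known as TRPML1, read 8.63 and 16.4 RPKM in U87MG and 8.13 and 11 in U251, again with both knockdowns above both controls. Its estimate was 0.62 ± 0.18 (limma adjusted p = 0.108). NPC1, the membrane protein that exports cholesterol from the lysosome, read 53.7 and 71.8 RPKM in U87MG and 5.85 and 6.23 in U251. Its counting interval in U251 included 1.

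All 5 pump genes were likewise higher in U87MG and 4 of 5 in U251 (43.2% and 48.4% of all genes tested), with medians of 0.40 and 0.11. Beside ATP6V1H, the d subunit of the membrane sector, ATP6V0D1, read 22.4 RPKM in the U87MG control and 46.8 in the knockdown, and 24.0 and 35.0 in U251. Both knockdowns exceeded both controls, with an estimate of 0.78 ± 0.19 (limma adjusted p = 0.0646). ATP6AP1, an accessory protein of pump assembly, read 15.5 and 20.8 RPKM in U87MG and 46.5 and 43.5 in U251. ATP6V0C, the proton-carrying ring subunit, read 76.2 and 95.3 RPKM in U87MG and 111.6 and 117.9 in U251. The catalytic subunit ATP6V1A hardly differed between arms, at 10.2 and 10.3 RPKM in U87MG and 11.6 and 12.6 in U251. Of the transcript words of ATP6V0C 89.2% also lie in overlapping annotated genes, and of those of CTSD 60.9%, so their counts may include other transcripts.

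The 3 factors of the TFEB family had a higher value in both knockdowns without a call, for TFEB within counting error. The medians were 0.26 in U87MG and 0.37 in U251, an order that rested on the pseudocount of 1, since with 0.1 they were 0.524 and 0.409. TFE3 was the most abundant of them in both lines, at 34.8 and 41.9 RPKM in U87MG and 11.5 and 16.1 in U251. Its read ratio was 1.21 (1.15 to 1.26) in U87MG and 1.40 (1.30 to 1.52) in U251, apart with U251 above. MITF read 2.34 and 3.41 RPKM in U87MG and 6.74 and 8.99 in U251. TFEB itself was near the limit of detection in U87MG, at 0.111 and 0.208 RPKM from 7 and 13 reads, and read 1.64 and 1.83 in U251. The counting interval of its read ratio included 1 in both lines, 0.697 to 5.57 in U87MG and 0.849 to 1.47 in U251. RNA levels say nothing of the location of these factors in the cell, which was not measured.

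**Figure D3:**
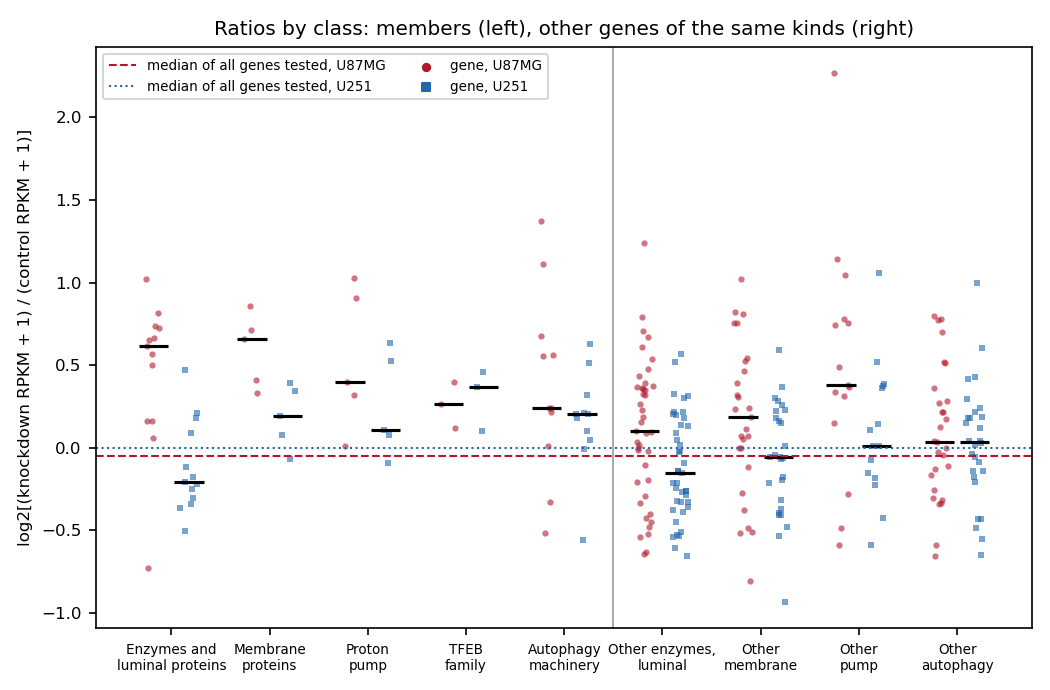
Log2 ratio of knockdown to control in U87MG (circles) and U251 (squares) for the genes of each class on the left and for other genes of 4 of the same kinds on the right, with black bars at the medians and dashed and dotted lines at the medians of all genes tested. The enzymes show the widest gap between medians, 0.62 in U87MG and -0.21 in U251, and the autophagy machinery nearly none, 0.24 and 0.20.

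The autophagy machinery was higher in 9 of 11 genes in each line (U87MG median 0.24, U251 median 0.20), where 43.2% and 48.4% of all genes tested were. Its counting intervals were apart with U87MG above for 3 genes and below for 3 (13.2% and 24.3% over all genes). ULK1, the kinase that starts autophagosome formation, was lower in both knockdowns (3.63 and 2.69 RPKM in U87MG, 2.37 and 1.28 in U251), with an estimate of -0.44 ± 0.18 (limma adjusted p = 0.217). BECN1 (Beclin 1), the scaffold of the lipid kinase complex that acts next, read 53.4 and 78.8 RPKM in U87MG and 49.4 and 70.8 in U251. Both knockdowns were above both controls by almost the same ratio, 1.48 (1.41 to 1.55) and 1.43 (1.37 to 1.51), and the estimate was 0.53 ± 0.16 (limma adjusted p = 0.111). UVRAG, a partner of Beclin 1, read 2.93 and 4.80 RPKM in U87MG and 2.93 and 3.45 in U251.

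WIPI1, which binds the lipid made by that complex, read 54.7 RPKM in the U87MG control and 119.6 in the knockdown, and 10.1 and 11.8 in U251. Its U87MG read ratio was 2.18 (2.09 to 2.29), beside 1.17 (1.04 to 1.32) in U251, and its U87MG log2 ratio of 1.11 came next after that of GABARAPL1, 1.37. Among the genes of the conjugation system that attaches LC3 to lipid, ATG5 read 33.8 and 34.1 RPKM in U87MG and 21.4 and 24.8 in U251. ATG12, which is joined to ATG5, read 19.5 and 23.2 RPKM in U87MG and 16.4 and 19.2 in U251. ATG7, the activating enzyme of the system, read 11.9 and 8.03 RPKM in U87MG and 5.45 and 5.65 in U251, and the counting interval of its U87MG read ratio lay below 1 (0.623 to 0.729).

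The ATG8 proteins, which ATG7 activates, differed among themselves. MAP1LC3B, the LC3 form used most as an autophagosome marker, read 83.6 and 134.3 RPKM in U87MG and 47.6 and 47.4 in U251, so it differed between the arms of U87MG and not detectably between those of U251, where the interval of its read ratio ran from 0.952 to 1.04. The near-copy MAP1LC3B2 was listed at 83.8 and 129 RPKM in U87MG and 40.1 and 45 in U251, almost the values of MAP1LC3B, and reads of the 2 genes may not have been separable. GABARAPL2 read 73.2 and 85.3 RPKM in U87MG and 60.6 and 65.0 in U251, a smaller ratio than that of GABARAPL1 in both lines. GABARAPL3, a near-copy of GABARAPL1, was listed at 2.27 and 5.26 RPKM in U87MG and 2.49 and 3.22 in U251.

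SQSTM1, whose protein is itself degraded by autophagy, read 626.2 and 740.5 RPKM in U87MG and 144.2 and 180.4 in U251. The read ratios of 1.18 (1.17 to 1.20) and 1.251 (1.22 to 1.28) were close in size, though their intervals, which cover counting error only, were apart with U251 above. The estimate was 0.28 ± 0.14 (limma adjusted p = 0.301). Exons of genes on the opposite strand overlap those of SQSTM1, BECN1, WIPI1, ATG12 and ATG7, in the last case those of VGLL4. Such overlaps also touch CTSA and HEXA, with 27.3% and 29.4% of their transcript words in other genes. For SQSTM1 the share in MRNIP was 51.7%. PLTP, opposite CTSA, read 16.8 and 23.6 RPKM in U87MG and 0.124 and 0.127 in U251. CNTD1, opposite BECN1, and ARSG, opposite WIPI1, did not exceed 0.2 and 0.752 RPKM. VGLL4 read 7.18 and 12.5 RPKM in U87MG and 13.1 and 14.1 in U251, and with strand use in the counting unknown, reads of such partners could not be told apart.

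Across the 37 genes the ratios of the 2 lines were moderately related, with Pearson's r = 0.52 and Spearman's rho = 0.47 over 37 genes, beside 0.48 and 0.49 over all genes tested. The lines share no library, but genes are not independent replicates, and this is a description only. The ratio was larger in U87MG than in U251 for 31 of the 37 genes (83.8%, against 42.9% of all genes tested), with a median difference of 0.40. The 4 widest gaps on the U87MG side were those of HEXA (1.03), CTSA (0.93), WIPI1 (0.91) and NPC2 (0.91). On the U251 side the widest were those of ATG7 (-0.56) and GUSB (-0.37).

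The lines themselves differed in more of these genes than the arms did. In the same limma fit, 15 of the 37 genes were called higher in U87MG, where 21.6% of all genes tested were, and 6 higher in U251, where 27% were. NPC1 had the widest difference, 3.16 ± 0.17 on the log2 scale (SE, n = 2 libraries per line, limma adjusted p = 8.82e-06), with a control level in U87MG 9.18-fold that in U251. WIPI1 followed at 2.78 ± 0.23 (limma adjusted p = 6.3e-05), CTSL at 2.30 ± 0.15 (limma adjusted p = 2.08e-05) and SQSTM1 at 2.07 ± 0.14 (limma adjusted p = 2.32e-05). In each of these 4 genes both U87MG libraries were above both U251 libraries.

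On the U251 side, the difference of U87MG from U251 was -1.67 ± 0.18 for LAMP2 (limma adjusted p = 0.000215), -1.28 ± 0.18 for ATP6AP1 (limma adjusted p = 0.0011) and -0.96 ± 0.18 for GUSB (limma adjusted p = 0.0032). CTSZ (-1.12) completed the U251 side with TFEB and MITF. The order on this side depended on the setting. Over all settings the difference reached -2.85 for TFEB and -2.65 for CTSZ, which rested on few reads in U87MG, and -1.72 for LAMP2. LAMP1, by contrast, was not called between the lines, at 0.17 (limma adjusted p = 0.468). Within the TFEB family TFE3 was higher in U87MG by 1.42 ± 0.17 (limma adjusted p = 0.0004), while TFEB (-1.24, limma adjusted p = 0.0027) and MITF (-1.20, limma adjusted p = 0.0008) were higher in U251. The 6 autophagy genes called between the lines were all higher in U87MG. The count of 15 became 6 without the filter on low values and 8 with the arm left out of the fit. Over all genes tested the calls higher in U87MG also fell, from 3482 to 1856 and 1960.

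**Figure D4:**
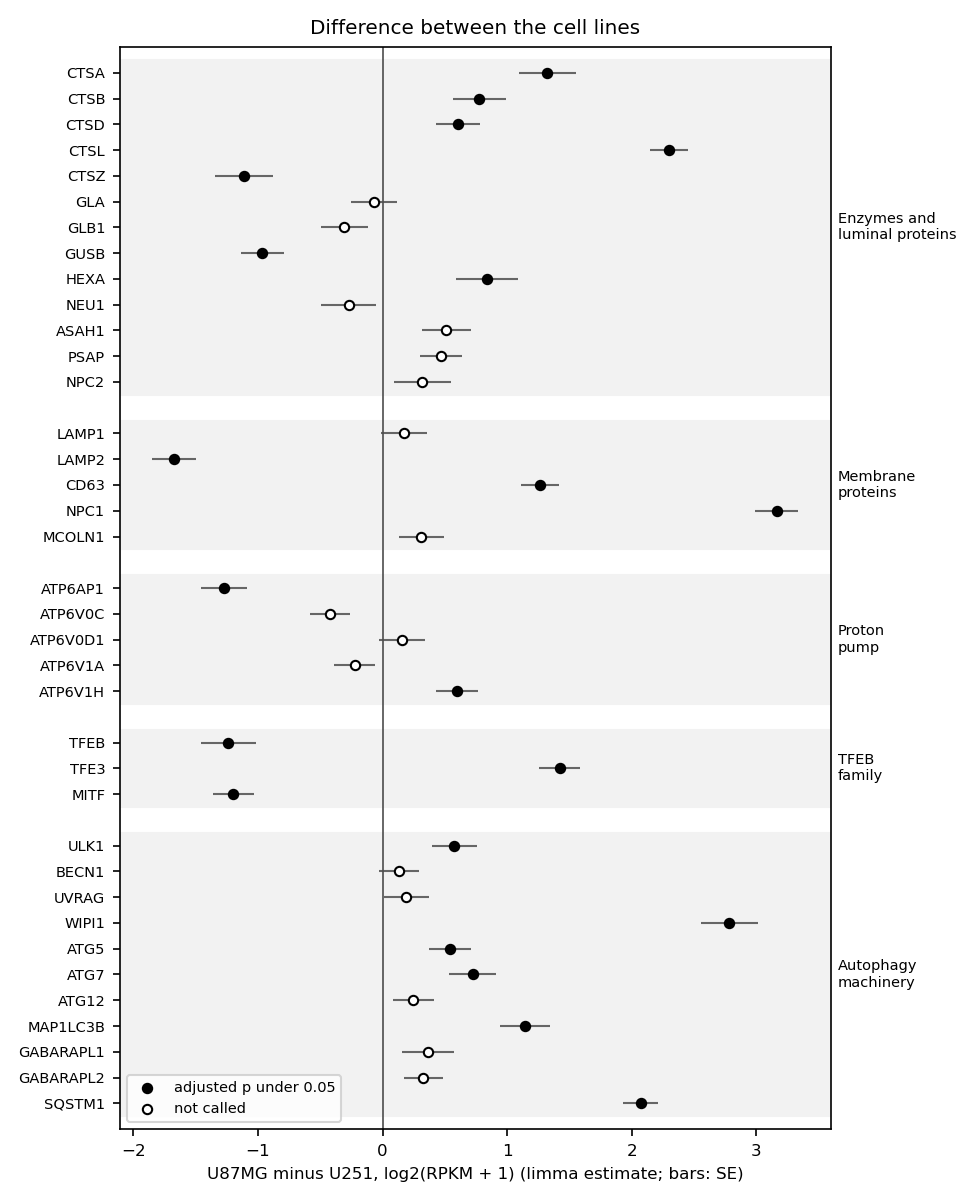
Difference between U87MG and U251 for each of the 37 genes, as the limma estimate on log2(RPKM + 1) with its SE, positive where U87MG was higher. Filled points passed an adjusted p of 0.05, 15 to the right of 0 and 6 to the left. On this scale NPC1 at 3.16 is the farthest right and LAMP2 at -1.67 the farthest left. Under other settings TFEB reached -2.85 and CTSZ -2.65.

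The E-box word can be set beside the ratios as a description. The 7 genes that held CACGTG were all at least 1.5-fold higher in the U87MG knockdown, where 7.68% of all genes tested were. Their median log2 ratio was 0.73 there and 0.21 in U251, beside 0.25 and 0.09 for the 22 without it. All 7 were enzyme, membrane or pump genes, and the 22 included the 10 autophagy and 3 TFEB family genes. The word and the class therefore overlap in part. In U87MG the medians with and without the word were 0.726 and 0.161 for the enzymes (3 and 6 genes). They were 0.715 and 0.413 for the membrane proteins (3 and 1) and 1.028 and 0.36 for the pump (1 and 2). In U251 they were 0.089 and -0.322, 0.346 and 0.077, and 0.526 and -0.007. These groups are small, and the part of the word or of the class was not tested. In the 33 other pathway genes with the word the medians were 0.32 in U87MG and 0.13 in U251, beside 0.12 and 0.01 in the 95 tested without it. By list, the U87MG median with the word was the lower one among the other pump subunits (0.336 and 0.37). It was also lower in the mTORC1 and Rag module (0.07 and 0.117) and the fusion genes (0.054 and 0.248), and higher in the remaining lists. Over the 9242 tested genes with a promoter the medians with and without the word were -0.03 and -0.06 in U87MG and 0.00 and -0.01 in U251. The stretches of CTSA, MCOLN1 and LAMP1 shown above belong to genes with U87MG log2 ratios of 1.02, 0.86 and 0.72, so the number of copies did not order the ratios. GABARAPL1 and WIPI1, with the highest U87MG log2 ratios of the 37, did not hold the word in the promoters on hand.

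**Figure D5:**
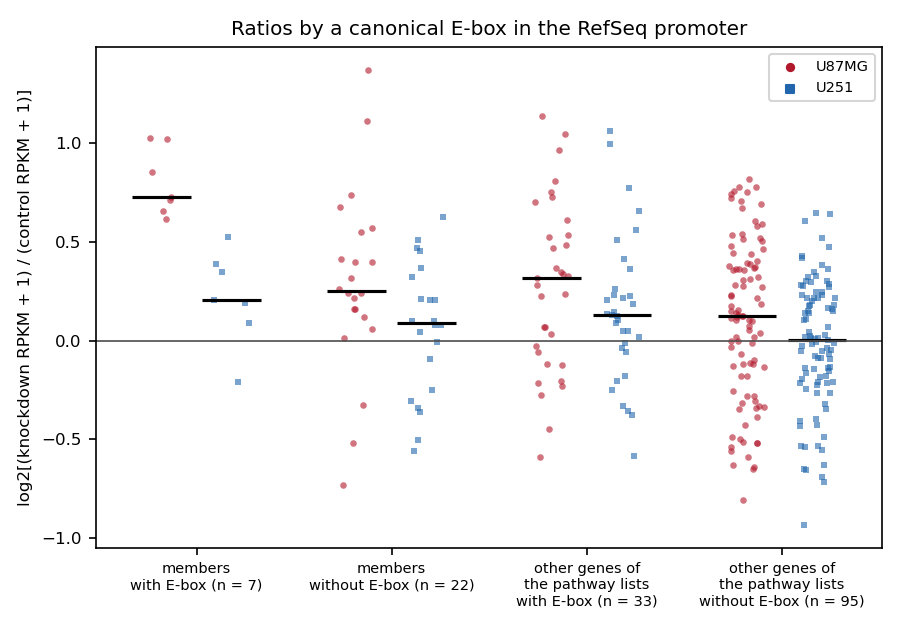
Log2 ratio of knockdown to control for genes with and without CACGTG in a RefSeq promoter, for the 29 of the 37 genes with a promoter and for other tested genes of the same pathways, circles for U87MG and squares for U251, black bars at medians. All 7 genes with the word lie above 0.5 in U87MG. Most of the 22 without it lie above 0 there as well, with only GUSB, ATG7 and ULK1 below.

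The same pathways hold many more genes, and 171 of the 182 listed besides the 37 were tested. The ratio was above 0 for 108 of them in U87MG (63.2%) and for 88 in U251 (51.5%). Of all genes tested 43.2% and 48.4% were, so the U251 share was close to that of all genes. The medians were 0.15 and 0.01. Of the 171 genes 29 passed 1.5-fold upward in U87MG and 6 downward (7.68% and 11.5% of all genes). In U251 8 passed it upward and 8 downward (5.01% and 7.73% of all genes). Across the lines limma called 3 higher and none lower, where 1.16% and 2.61% of all genes were called. At an unadjusted p under 0.05 there were 28 higher and 14 lower, where 8.29% and 12.8% of all genes were. The 3 were the G subunit of the pump ATP6V1G1, the Rag GTPase RRAGB, which recruits mTORC1 to the lysosome, and ATG14, which directs the Beclin 1 complex to autophagy. ATP6V1G1 read 63.6 and 133 RPKM in U87MG and 33.3 and 70.5 in U251, with an estimate of 1.05 ± 0.16 (limma adjusted p = 0.0211). RRAGB read 6.41 and 15.3 RPKM in U87MG and 6.03 and 11 in U251 (limma adjusted p = 0.0315). ATG14 read 6.18 and 10.7 RPKM in U87MG and 3.45 and 7.87 in U251 (limma adjusted p = 0.0415). In each of the 3 both knockdowns were above the control of their own line. The call of ATP6V1G1 held under trimmed-mean rescaling (limma adjusted p = 0.043), and those of RRAGB (0.058) and ATG14 (0.062) did not. None of the 3 held without a filter or with the line left out.

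By role, the other pump subunits had the highest median in U87MG, 0.38, with 12 of 15 higher there and 9 in U251 (43.2% and 48.4% of all genes tested). ATP6V0D2, the second form of the d subunit, read 9.55 and 49.7 RPKM in U87MG, and 0.0672 and 0.0755 in U251 from 4 and 5 reads, with an estimate of 1.14 ± 0.44 (limma adjusted p = 0.194). The B subunit ATP6V1B2 read 30.4 and 68.4 RPKM in U87MG and 22.1 and 32.1 in U251. For the other enzymes the medians were 0.10 and -0.15, with 25 of 41 above 0 in U87MG (61%) and 15 in U251 (36.6%). Their ratio was larger in U87MG for 32 (78%, against 42.9% of all genes tested). Cathepsin K (CTSK), the collagenase of osteoclasts, read 15.8 and 38.8 RPKM in U87MG and 2.05 and 1.32 in U251. The acid lipase LIPA was lower in both knockdowns (18 and 11.3 RPKM in U87MG, 20.6 and 13.8 in U251).

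Among the other membrane proteins 18 of 27 had a ratio above 0 in U87MG, and 11 in U251 (66.7% and 40.7%). For this list and those below, the share over all genes tested was 43.2% in U87MG and 48.4% in U251. CD68 read 62.4 and 111 RPKM in U87MG and 8.52 and 10.7 in U251, whereas SCARB2, the receptor that carries glucocerebrosidase to the lysosome, was lower in both knockdowns, at 24.1 and 16.6 RPKM and 54.5 and 28.1. Of the 12 sorting genes 7 were higher in U87MG and 6 in U251. Among the 24 tested genes of the mTORC1 and Rag module 14 were higher in U87MG and 15 in U251. RRAGD read 8.82 and 23.1 RPKM in U87MG and 2.60 and 3.05 in U251, and RRAGC 44.9 and 88.9 and then 16.4 and 17.7, so their gap between arms was wide in U87MG and narrow in U251. Of the other autophagy genes 16 of 28 were higher in each line, with a median of 0.04 in both. The autophagy receptors were higher in 7 of 11 and 6 of 11, and the fusion genes in 9 of 13 and 10 of 13, without a call in either list (at an unadjusted p under 0.05, 1 higher and 1 lower, and 2 higher and 1 lower, beside 8.29% and 12.8% of all genes).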

How the data were processed

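Expression was measured in 4 poly(A) RNA-seq libraries, 1 per cell line and arm, and groups were taken from the sample titles. The submitters' processing notes name Bowtie 0.12.2 as aligner and hg19 as genome build. Not given in the sources used here were the counting program, the gene annotation and the use of strand. The authors deposited RPKM values per gene, scaled to gene length and library size. All 4 value columns were used. The 37 genes and every gene list were chosen with earlier results of these data known.

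Whole reads were recovered from the RPKM steps: 27928 of 27973 genes above 0 (99.8%) came out whole in every library within 0.01 reads, for gene models of up to 40000 bases. They are the smallest whole numbers that could be fitted, and made up 96.3% to 97.4% of each library's reads. A counting interval is the 95% exact Clopper-Pearson interval for the share of a gene's reads that fell in the knockdown library, rescaled by depth. It covers counting error only.

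Across lines limma 3.58.1 (R 4.3.3) was fitted on log2(RPKM + 1) with line and arm as terms. eBayes used an intensity trend, tests were two-sided, and p-values were adjusted by Benjamini-Hochberg over the 16098 genes with at least 1 RPKM in at least 1 library. Each gene then has 1 residual degree of freedom, and most of the spread estimate comes from the other genes. The fit was tested on simulated data. Within a line, differences of at least 1.5-fold were counted without a test. Besides the 37 genes, those named were, per list, up to 4 with the largest absolute mean ratio of the lines among genes of at least 5 RPKM in a library, up to 2 with the largest difference between lines, near-copies and SRSF1, of which a selection is given. VGLL4, PLTP, CNTD1 and ARSG were chosen once their values had been seen.

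Positions are those of GENCODE 29 on GRCh38, and promoters those of RefSeq on GRCh38.p14. None were converted from hg19. Near-copies were sought as shared 31-base words of transcripts. Alternatives were other pseudocounts, filters, scalings and fold limits, eBayes without a trend, and a fit without the second factor. Python 3.11.15 with pandas 2.3.3, numpy 2.4.6, scipy 1.17.1 and matplotlib 3.10.9 was used.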

Additional observations from a re-analysis of the deposited data

Results flagged for a closer look

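In 8 of the 37 genes the counting intervals of the knockdown-to-control read ratio lay on opposite sides of 1 in the 2 lines, above it in U87MG and below it in U251, as they did in 2.88% of the tested genes with reads in both lines. These differences were not tested, since no arm of a line had a second library. The log2 ratio in U87MG minus that in U251 was 1.03 for HEXA, 0.91 for NPC2, 0.83 for CTSB, 0.83 for NEU1, 0.62 for ASAH1, 0.49 for ATP6AP1, 0.47 for GLA and 0.40 for LAMP2. Of the 8 genes 6 encode luminal proteins, and none belongs to the TFEB family or the autophagy machinery.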

How the results depend on the processing

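The number of the 37 genes called higher in the knockdown across lines (2) became 0 under trimmed-mean rescaling, without a filter on low values, with eBayes without a trend and with the cell line left out, and 4 with a filter at 5 RPKM. Over all genes tested, 186 calls higher and 420 lower became 47 and 52 under trimmed-mean rescaling, 315 and 513 under quantile normalization, 301 and 608 with the filter at 5 RPKM, 88 and 172 without a trend, and 0 and 0 without a filter or with the line left out. The number higher in U87MG than in U251 (15) became 6 without a filter and 8 with the arm left out. Over all genes tested that number fell too, from 3482 of 16098 to 1856 of 27973 and 1960 of 16098. In U251 the number at least 1.5-fold lower (0) became 1 with a pseudocount of 0.1 and 1 with 0.5. Over all genes tested that number went from 1245 to 2085 and 1627. At 2-fold, U87MG had 4 genes higher (15 at 1.5-fold) and 0 lower (1 at 1.5-fold), and U251 had 0 higher (2 at 1.5-fold). The share of all genes at 2-fold is not given here, so these counts cannot be set against it. The U87MG median of the TFEB family was 0.524 with a pseudocount of 0.1 (0.262 with 1), and that of the membrane proteins 0.412 under quantile normalization (0.659 without). The CTSZ estimate (-0.05) changed sign, to 0.16 with a pseudocount of 0.1 and 0.0087 under quantile normalization, on 4 and 9 reads in U87MG. Of the other single-gene estimates under these settings, 279 for the knockdown and 270 for the lines kept their direction and their side of the threshold, 8 and 17 lost a call, and 3 and 5 gained one. Of the called genes outside the 37 that were followed (SRSF1, ATP6V1G1, RRAGB and ATG14), 12 of their estimates lost a call and 20 did not. The cause of these changes was not tested. No paired analysis was possible because each group held replicate 1 only, and the cell line is already a block in the fit.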
